A study of Mus musculus with 8 samples.

Results

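The 10 genes described here encode the core machinery of mitochondrial fusion and fission. The study concerns Nynrin in stem cell function and in how the permeability transition pore of mitochondria opens. The genes were found by symbol, and all 10 were present among 55401 gene records and passed the filter on low counts that left 27573 genes for testing. Haematopoietic stem cells (HSCs) were sorted from the bone marrow of C57BL/6 mice, all 8 weeks of age, and 4 RNA-seq libraries were made in each of 2 groups. In the Nynrin CKO group, floxed Nynrin (Nynrinfl/fl) was deleted by Tie2-Cre, a recombinase under a promoter known from endothelial and haematopoietic cells. The control group, labelled wild type, carried Nynrinfl/fl without Cre. Cre was thus present in the Nynrin CKO group alone, and its effect cannot be told apart from that of losing Nynrin. Nothing in the labels ties a library to an individual animal, so p-values measure the spread between libraries, part of which may be technical.

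Mitochondria join and divide continuously. Fusion needs the mitofusins in the outer membrane and OPA1 in the inner membrane, where OPA1 also shapes the cristae. The peptidases OMA1 and YME1L cut OPA1 and so set the balance of its long and short forms. Fission needs DRP1, a dynamin-like GTPase encoded by Dnm1l that assembles around the mitochondrion after adaptors of the outer membrane recruit it. In mouse HSCs mitofusin 2 is known for supporting cells with lymphoid potential, and DRP1 for the regenerative capacity of the cells.

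Of the 10 genes, Mief1 fell in Nynrin CKO and none rose (edgeR quasi-likelihood test, adjusted p threshold 0.05 over all tested genes). Over all tested genes, 0.588% were called lower and 2.22% higher. At an unadjusted p under 0.05, 3 members were higher (Fis1, Mff and Oma1) and 2 lower (Mief1 and Mfn2), 5 of 10 against 18.9% of all tested genes. That share was larger among well expressed genes. An edgeR fit of only the 9866 genes with a mean of at least 10 CPM took in 8 members. In that fit 1780 genes were higher and 1727 lower at the same unadjusted p. It called 649 genes higher and 799 lower, of which 0 and 2 were members. DESeq2 called 1 member higher and 2 lower (9.45% and 5.38% of the genes to which it gave an adjusted p), and limma-voom 1 higher and 1 lower (5.91% and 1.8% of all tested genes). The groups did not overlap for 3 members, Mief1, Fis1 and Mff, against 14.3% of all tested genes. This too depended on scaling: with total counts the members that did not overlap were Mief1 and Mfn2 (12.4% of all tested genes), with RLE factors Mief1, Mff and Mfn2 (12.5%), and with upper-quartile factors all 4 (13.5%). The median log2 fold change of the members was -0.05, and that of all tested genes was -0.09. In the fit of only genes with a mean of at least 10 CPM the order was reversed. There the median was -0.09 for the 8 members and 0.01 for all such genes. These values depend on scaling. With total counts in place of TMM factors, edgeR's default correction for library composition, the median of all tested genes was -0.34 and that of the members -0.27. Calls over all genes were 611 higher and 162 lower with TMM, 13 and 22 with RLE factors, 59 and 318 with total counts, and 225 and 251 with upper-quartile factors.

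**Figure D1:**
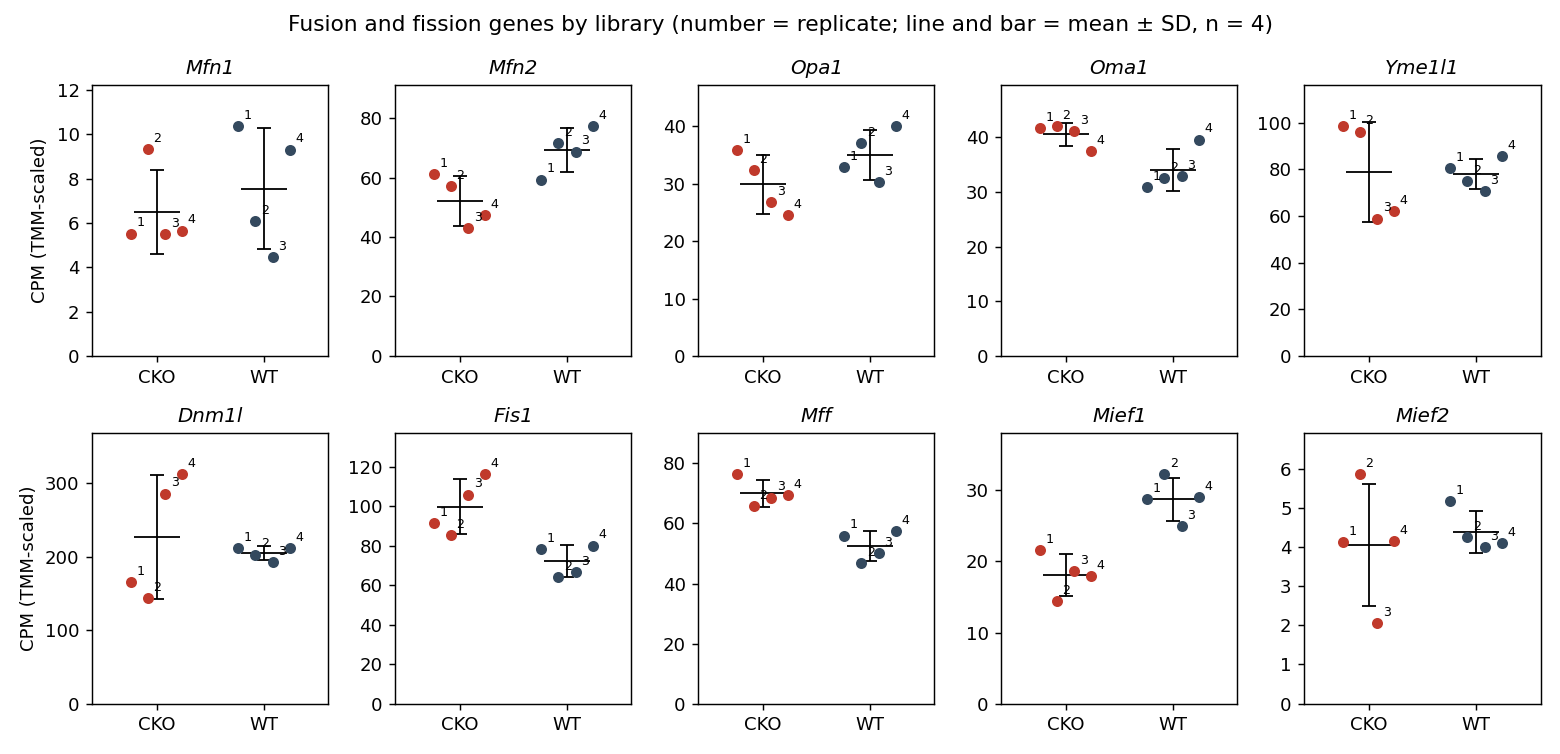
Level of each of the 10 genes in CPM (read counts scaled to equal library size with TMM factors, y axis from 0) in 4 Nynrin CKO (CKO, left) and 4 control (WT, right) libraries. Points carry the replicate number, and lines and bars give the mean ± SD. With this scaling Mief1 lay below, and Fis1 and Mff above, every control library, while Dnm1l and Yme1l1 lay on both sides of all controls. With total counts, Fis1 and Mff overlapped the controls and so did 1 Nynrin CKO library for Dnm1l.

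The libraries stood apart in ways the groups do not explain. Nynrin CKO 3 and 4 and control 4 had 142 to 225 CPM on 2001 olfactory and vomeronasal receptor records, and the other 5 libraries 891 to 1670. They are called receptor-poor (3 libraries) and receptor-rich (5 libraries) from here on. TMM factors were 0.805 in Nynrin CKO 3 and 4 and 1.02 to 1.16 in the other 6 libraries. Mitochondrially encoded genes took 9.90% and 9.86% of counts in Nynrin CKO 3 and 4 and 5.98% to 7.44% in the other 6. Genes with counts numbered 28914 to 31344 in receptor-poor and 40240 to 44562 in receptor-rich libraries. Xist counts were 177719 and 224087 in controls 3 and 4 and 245 to 471 elsewhere. Total counts were 43998525 to 56437299 in Nynrin CKO and 36942835 to 50260720 in controls. The Nynrin CKO libraries formed close pairs, 1 with 2 and 3 with 4. Over genes with a mean of at least 10 CPM, the median absolute difference in log2(CPM + 1) was 0.099 and 0.084 within these pairs. It was 0.30 to 0.31 between the pairs and 0.16 to 0.22 among controls. The SDs and p-values below treat the 4 Nynrin CKO libraries as separate. Nynrin itself was at 10.4 ± 2.49 CPM in Nynrin CKO and 37.3 ± 8.56 CPM in controls (SD, n = 4 each; log2 fold change -1.85, edgeR adjusted p = 0.0345). These counts cover the whole gene, and the exons removed by Cre are not named in the labels. All 10 HSC markers, among them Procr, Kit, Slamf1 and Hlf, averaged at least 10 CPM and summed to 3617 to 4129 CPM in Nynrin CKO and 3225 to 4013 in controls. None of the 10 was called by edgeR (4 lower at an unadjusted p under 0.05), and DESeq2 and limma-voom called 2 and 1 lower.

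Markers of other cells moved with some libraries. The 11 neutrophil and granulocyte precursor markers summed to 483 to 532 CPM in Nynrin CKO 1 and 2, 4106 to 4139 in Nynrin CKO 3 and 4, and 206 to 360 in controls, and 3 of them rose. The 8 macrophage markers summed to 85.6 to 211 CPM in Nynrin CKO and 58.5 to 77.6 in controls (1 rose), the 6 B cell markers to 52.1 to 90.3 and 36.8 to 43.0, and the 6 T and NK cell markers to 145 to 291 and 57.6 to 86.1 (1 rose). The 6 mast cell and basophil markers summed to 29.2 to 124 CPM in Nynrin CKO and 8.45 to 29.6 in controls (2 rose), the 6 endothelial markers to 122 to 244 and 109 to 138, and the 6 erythroid markers to 135 to 254 and 85.5 to 109 (2 rose). No B cell or endothelial marker was called by edgeR or limma-voom. At an unadjusted p under 0.05, edgeR had 2 B cell and 1 endothelial marker higher, and DESeq2 called 2 and 0. By the same 2 measures, 8 and 7 neutrophil and granulocyte precursor markers were higher, and 5 and 4 macrophage markers. For mast cell and basophil markers these counts were 3 and 3, for erythroid markers 3 and 2, and for T and NK cell markers 1 and 1. No marker was at 0 in all 8 libraries, but many were low. A mean of at least 10 CPM was reached by 9 neutrophil and granulocyte precursor, 5 macrophage, 5 erythroid and 3 endothelial markers. It was reached by only 1 B cell, 2 T and NK cell and 1 mast cell and basophil marker. In each of these last lists the lowest single value was 0. The part of these other cells in the values below was not tested. In bulk RNA fewer cells of a type cannot be told apart from less RNA per cell.

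Levels between genes were compared per kilobase of the longest GENCODE transcript. Fis1 and Dnm1l stood first, at 105 ± 14.8 and 57.1 ± 21.4 CPM per kilobase in Nynrin CKO and 76.4 ± 8.49 and 51.6 ± 2.28 in controls (SD, n = 4 each). In controls Oma1 (17.7), Yme1l1 (16.6), Mfn2 (15.9) and Mff (13.4) followed, and the ranges of neighbours in that order overlapped. Opa1 (5.63) and Mief1 (5.58) came next and overlapped each other. Mief2 (1.74) and Mfn1 (1.65) were last and overlapped each other too. The mitofusin transcript of these cells was thus mainly Mfn2. Scaling by all exonic bases exchanged only Yme1l1 and Mfn2. Per kilobase of the longest transcript Mff ranked 4 in Nynrin CKO, ahead of Yme1l1 and Mfn2.

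Promoter sequences are shown for the 3 members whose groups did not overlap and for Yme1l1 and Dnm1l, whose Nynrin CKO libraries split around the controls. Each is the 250 bases before a RefSeq start site on the gene's own strand (GRCm38.p6, the same assembly as mm10), and capitals mark CCGGAAG, a core motif of ETS factors such as GABP, which acts at many nuclear genes for mitochondrial proteins. Mff and Dnm1l have no capitals in these bases. They lie at chr15:80233830-80234079 (plus) for Mief1, chr5:136953025-136953274 (plus) for Fis1, chr1:82724640-82724889 (plus) for Mff, chr2:23156255-23156504 (plus) for Yme1l1 and chr16:16359032-16359281 (minus) for Dnm1l.
Mief1: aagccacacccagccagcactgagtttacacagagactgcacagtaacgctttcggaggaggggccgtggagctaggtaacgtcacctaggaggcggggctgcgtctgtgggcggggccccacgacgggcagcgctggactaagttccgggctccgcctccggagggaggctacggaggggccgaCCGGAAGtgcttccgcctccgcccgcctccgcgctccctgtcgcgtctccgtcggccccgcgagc
Fis1: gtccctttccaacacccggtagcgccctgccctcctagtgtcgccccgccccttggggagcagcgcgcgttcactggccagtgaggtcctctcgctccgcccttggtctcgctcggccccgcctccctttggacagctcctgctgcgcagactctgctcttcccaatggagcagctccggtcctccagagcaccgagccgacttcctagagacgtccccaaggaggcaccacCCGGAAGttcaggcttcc
Mff: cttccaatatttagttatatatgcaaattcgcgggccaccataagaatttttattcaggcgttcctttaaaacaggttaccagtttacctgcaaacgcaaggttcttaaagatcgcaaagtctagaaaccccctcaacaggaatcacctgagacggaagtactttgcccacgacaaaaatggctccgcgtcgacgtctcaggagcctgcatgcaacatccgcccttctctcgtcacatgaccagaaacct
Yme1l1: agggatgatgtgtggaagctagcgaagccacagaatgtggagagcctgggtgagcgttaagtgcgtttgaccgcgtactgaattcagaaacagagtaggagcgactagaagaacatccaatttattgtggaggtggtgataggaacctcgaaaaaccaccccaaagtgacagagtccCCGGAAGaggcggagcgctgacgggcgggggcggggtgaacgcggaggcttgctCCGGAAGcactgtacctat
Dnm1l: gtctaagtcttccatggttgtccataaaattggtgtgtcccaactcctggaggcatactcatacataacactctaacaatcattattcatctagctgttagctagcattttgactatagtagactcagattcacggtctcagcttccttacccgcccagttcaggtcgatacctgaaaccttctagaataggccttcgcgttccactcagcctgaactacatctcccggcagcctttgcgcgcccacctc

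In windows of 300 bases, which run from 250 bases before to 50 after a start site, CCGGAAG on either strand was found for 5 of 10 members (6 of their 15 windows) and in 8.86% of all 32851 windows. The other members with a match were Mfn1 and, at its second start site only, Dnm1l. The motif of nuclear respiratory factor NRF1 was in the windows of Oma1 and Opa1 and in 4.6% of all windows. CACGTG (E-box) was found for Mief2 and in 7.15% of all windows. TGACGTCA, AAGATGGC and TCAAGGTCA were found for no member and in 1.79%, 2.75% and 0.423% of all windows. No motif contains another, and a match describes letters, not a site of binding.

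Among the fission adaptors, Mief1 was lower in Nynrin CKO, Fis1 and Mff were above every control (with TMM; Fis1 not with RLE factors, and neither with total counts) without passing the test, and Mief2 did not differ beyond its spread. Mief1 encodes an outer membrane adaptor that binds DRP1 and ADP. The gene (ENSMUSG00000022412) spans 80234018 to 80253371 of chromosome 15, plus strand (mm10). It measured 21.5, 14.4, 18.6 and 17.9 CPM in Nynrin CKO 1 to 4, against 28.7, 32.3, 24.9 and 29.1 CPM in controls 1 to 4. All 4 Nynrin CKO libraries were below all 4 controls, with each of the 4 scalings. The means were 18.1 ± 2.95 and 28.7 ± 3.02 CPM (SD, n = 4 each), a ratio of 0.63 in Nynrin CKO over controls. This gave a log2 fold change of -0.67 ± 0.15 SE (edgeR adjusted p = 0.0491; exact two-sided permutation p = 0.0286, the lowest possible for 2 groups of 4). It was -0.67 among receptor-rich and also among receptor-poor libraries, and -0.55 (edgeR adjusted p = 0.196) once trends with transcript length and GC were taken out. With any 1 of the 8 libraries left out it lay between -0.80 and -0.56. The edgeR adjusted p then lay between 0.0656 and 0.156, so the call needed all 8 libraries. With each close pair of Nynrin CKO libraries (1 and 2, 3 and 4) summed, it was -0.73 (edgeR adjusted p = 0.443). The deleted gene Nynrin did not pass with the pairs summed either (-1.90, edgeR adjusted p = 0.402). With 1 library left out, the edgeR adjusted p of Nynrin lay between 0.0240 and 0.123, and it passed only without control 3 or control 4. A short protein-coding record, AC140267, overlaps an exon of Mief1 and had 4.14% as many counts, at 0.852 ± 0.162 CPM in Nynrin CKO and 1.05 ± 0.307 CPM in controls.

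Fis1 encodes a small tail-anchored outer membrane protein that is required for fission in yeast and acts in fission in mammals too. The gene (ENSMUSG00000019054) spans 136953275 to 136966232 of chromosome 5, plus strand. It had 91.5, 85.5, 106 and 116 CPM in Nynrin CKO 1 to 4, against 78.4, 64.3, 66.8 and 80.2 CPM in controls 1 to 4. Nynrin CKO 3 and 4 were highest, and no Nynrin CKO library overlapped a control with TMM or upper-quartile factors, while the groups overlapped with RLE factors and with total counts Nynrin CKO 3 (85.3 CPM) was just below control 1 (85.5 CPM). This gave a log2 fold change of 0.46 ± 0.13 SE (edgeR adjusted p = 0.0856, not passing; p by exact permutation = 0.0286). It was 0.34 among receptor-rich libraries and 0.47 among receptor-poor ones. Fis1 has the shortest transcript of the 10, at 948 bases, and expressed genes in the shortest of 5 length classes had a median log2 fold change of 0.38. With the length and GC trend removed the Fis1 value was 0.13 (adjusted p = 0.627), and with total counts it was 0.18 (adjusted p = 0.412).

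Mff encodes the mitochondrial fission factor, a main DRP1 receptor of mammalian cells. The gene (ENSMUSG00000026150) spans 82724890 to 82752390 of chromosome 1, plus strand. Its level was 76.5, 65.9, 68.6 and 69.6 CPM in Nynrin CKO 1 to 4, against 56.0, 46.9, 50.1 and 57.4 CPM in controls 1 to 4. Again all 4 Nynrin CKO libraries were above all controls, here with Nynrin CKO 1 highest, but with total counts Nynrin CKO 3 and 4 (55.2 and 56.0 CPM) lay within the control range of 52.3 to 61.0 CPM. This gave a log2 fold change of 0.41 ± 0.10 SE (edgeR adjusted p = 0.0617, not passing; p by exact permutation = 0.0286), 0.48 among receptor-rich libraries and 0.27 among receptor-poor ones. The edgeR adjusted p was 0.0481 without control 4, and the adjusted p was 0.0393 with DESeq2 and 0.0337 with limma-voom. The longest Mff transcript has 3918 bases, in a length class whose median was -0.08. The Mff value was 0.53 (edgeR adjusted p = 0.176) with the length and GC trend removed. With total counts it was 0.15 (edgeR adjusted p = 0.636). The part of transcript length in the Fis1 and Mff values was not tested. Mff is spliced in many forms, 16 transcripts in the deposited table, which gene-level counts cannot separate.

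Mief2, the paralogue of Mief1 and also an adaptor of DRP1, was measured by only 93 to 284 counts in Nynrin CKO and 170 to 215 in controls. The gene (ENSMUSG00000018599) spans 60728398 to 60732951 of chromosome 11, plus strand. It was at 4.12, 5.86, 2.05 and 4.16 CPM in Nynrin CKO 1 to 4, against 5.17, 4.26, 3.99 and 4.11 CPM in controls 1 to 4. Nynrin CKO 2 and 3 were the highest and the lowest of all 8 libraries, and the groups overlapped (log2 fold change -0.11 ± 0.31 SE, edgeR adjusted p = 0.899). It was 0.16 among receptor-rich libraries and -0.41 among receptor-poor ones. As a ratio within each library, which no scaling can change, Mief1 over Mief2 was 2.24 ± 0.78 in Nynrin CKO and 2.72 ± 0.20 in controls on the log2 scale (SD, n = 4 each), and the groups overlapped.

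Dnm1l, the gene for DRP1 itself, had the most counts of the 10 and the widest difference between the mean of Nynrin CKO 1 and 2 and that of Nynrin CKO 3 and 4. It spans 16312230 to 16358959 of chromosome 16, minus strand (ENSMUSG00000022789). Nynrin CKO 1 and 2 had 165 and 143 CPM and Nynrin CKO 3 and 4 had 286 and 312 CPM, against 212, 203, 193 and 212 CPM in controls 1 to 4. Nynrin CKO 1 and 2 were below every control and Nynrin CKO 3 and 4 above every control, including control 4, which shares their low receptor reads. With total counts Nynrin CKO 3 (230 CPM) was just below control 1 (231 CPM), so this split held with TMM, RLE and upper-quartile factors only. The group means were 227 ± 84.8 and 205 ± 9.04 CPM (SD, n = 4 each), with a log2 fold change of 0.15 ± 0.24 SE (edgeR adjusted p = 0.821). It was -0.39 among receptor-rich libraries and 0.50 among receptor-poor ones. The sign over all libraries was negative with total counts, at -0.18.

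Yme1l1, the ATP-dependent inner membrane protease that cuts OPA1 constitutively, split the opposite way. The gene (ENSMUSG00000026775) spans 23156369 to 23199260 of chromosome 2, plus strand. Nynrin CKO 1 and 2 had 98.5 and 96.2 CPM and Nynrin CKO 3 and 4 had 58.9 and 62.1 CPM, against 80.5, 75.1, 70.7 and 85.8 CPM in controls 1 to 4. Here Nynrin CKO 1 and 2 were above, and Nynrin CKO 3 and 4 below, every control, with each of the 4 scalings. The log2 fold change was 0.02 ± 0.18 SE over all libraries (edgeR adjusted p = 0.978), 0.37 among receptor-rich libraries and -0.50 among receptor-poor ones. Its sign over all libraries was negative with RLE factors (-0.04), total counts (-0.21) and upper-quartile factors (-0.09).

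Such a split was seen for 2 of the 10 members, Dnm1l and Yme1l1, against 4.08% of all tested genes and 6.49% of the 9862 tested genes with a mean of at least 10 CPM. With RLE and upper-quartile factors it was seen for the same 2 members, against 3.99% and 4.05% of all tested genes, and with total counts for Yme1l1 and Oma1, against 4.66%. A difference of at least 1.5-fold without overlap between Nynrin CKO 1 and 2 and Nynrin CKO 3 and 4 was found for 2 of the 8 members at that level, the same 2, and for 24.3% of all such genes. The mitochondrially encoded share and the granulocyte precursor markers given above were higher in Nynrin CKO 3 and 4 than in 1 and 2. So were the summed macrophage (208 to 211 CPM against 85.6 to 88.0), B cell (83.5 to 90.3 against 52.1 to 54.8), T and NK cell (285 to 291 against 145 to 155), mast cell and basophil (121 to 124 against 29.2 to 33.3) and endothelial markers (240 to 244 against 122). The erythroid markers went the other way, at 135 to 136 CPM in Nynrin CKO 3 and 4 against 246 to 254 in 1 and 2. The part of these in the split was not tested. With 1 control among the receptor-poor libraries, a difference in the genotype effect between the 2 kinds of library was not tested.

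**Figure D2:**
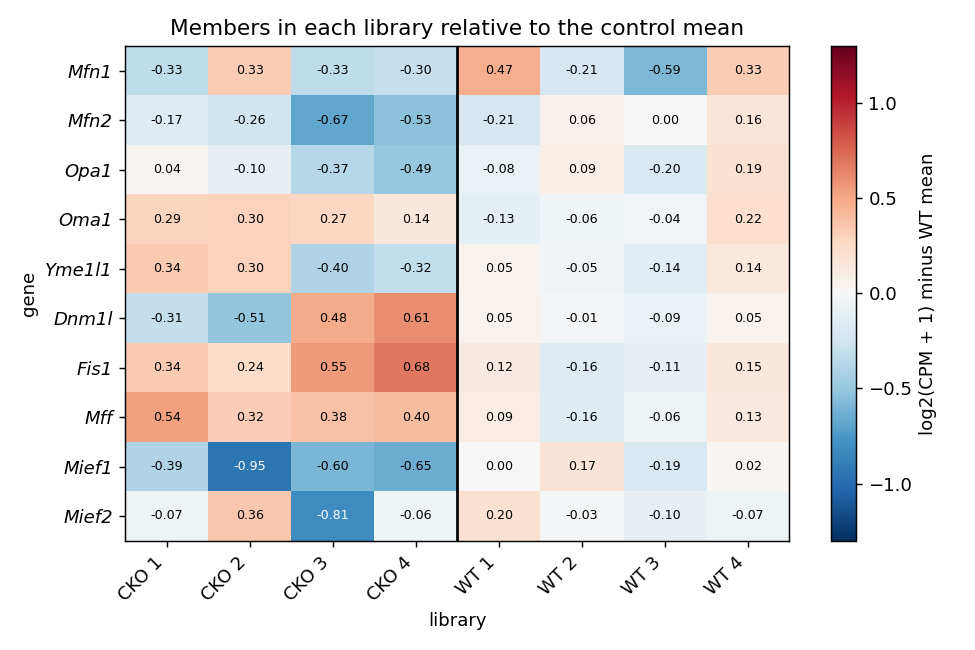
Each cell gives the log2(CPM + 1) of a gene (rows) in a library (columns, Nynrin CKO left of the line and control right) minus the mean of the 4 controls (WT). Dnm1l ran from -0.51 in CKO 2 to 0.61 in CKO 4 and Yme1l1 the other way, while Mief1 was negative and Fis1 and Mff positive in all 4 Nynrin CKO libraries.

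Oma1, the stress-activated peptidase that cleaves OPA1 when the inner membrane loses its potential, was close to even over the Nynrin CKO libraries with TMM factors and not with total counts. The gene (ENSMUSG00000035069) spans 103313812 to 103366443 of chromosome 4, plus strand. It was at 41.6, 42.0, 41.0 and 37.5 CPM in Nynrin CKO 1 to 4, against 30.9, 32.5, 32.8 and 39.6 CPM in controls 1 to 4. Control 4 was above Nynrin CKO 4, and otherwise the groups did not overlap. With total counts Nynrin CKO 1 and 2 (42.8 and 43.0 CPM) were above, and Nynrin CKO 3 and 4 (33.0 and 30.2 CPM) below, all controls (33.7 to 41.2 CPM). The log2 fold change was 0.26 ± 0.11 SE (edgeR adjusted p = 0.244; p by exact permutation = 0.0571). It was 0.38 among receptor-rich libraries and -0.01 among receptor-poor ones, 0.02 with the length and GC trend removed, and -0.00296 with total counts. Oma1 over Yme1l1 within each library was -0.92 ± 0.35 on the log2 scale in Nynrin CKO and -1.20 ± 0.13 in controls. That ratio was highest in Nynrin CKO 3 and 4, at -0.52 and -0.73, against -1.24 and -1.20 in Nynrin CKO 1 and 2 and -1.38 to -1.10 in controls.

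The fusion GTPases had negative log2 fold changes with each of the 4 scalings, though Mfn1 and Opa1 did not among receptor-rich libraries, and none passed. Mfn1 and Mfn2 lie in a length class with a median of -0.08, and Opa1 in the longest class, with a median of -0.17. With the length and GC trend removed, Mfn1 was at -0.15, Mfn2 at -0.33 and Opa1 at -0.12, with none passing. The part of transcript length in these values was not tested. Mfn2, which fuses outer membranes and tethers mitochondria to the endoplasmic reticulum, spans 147873599 to 147904704 of chromosome 4, minus strand (ENSMUSG00000029020). It had 61.2, 57.2, 42.9 and 47.4 CPM in Nynrin CKO 1 to 4, against 59.3, 71.7, 68.7 and 77.2 CPM in controls 1 to 4. Nynrin CKO 2 to 4 were below all controls and Nynrin CKO 1 was above control 1. This gave a log2 fold change of -0.41 ± 0.14 SE (edgeR adjusted p = 0.139; p by exact permutation = 0.0571), -0.17 among receptor-rich libraries and -0.77 among receptor-poor ones. The adjusted p was 0.0438 with DESeq2, and in edgeR 0.0377 when only genes with a mean of at least 10 CPM were tested.

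Opa1, the inner membrane GTPase, spans 29579334 to 29654884 of chromosome 16, plus strand (ENSMUSG00000038084). It measured 35.9, 32.4, 26.8 and 24.6 CPM in Nynrin CKO 1 to 4, against 32.9, 37.1, 30.2 and 40.0 CPM in controls 1 to 4. Nynrin CKO 3 and 4 were below every control and Nynrin CKO 1 and 2 lay within the control range (log2 fold change -0.23 ± 0.15 SE, edgeR adjusted p = 0.485). It was 0.03 among receptor-rich libraries and -0.64 among receptor-poor ones. The ratio of Opa1 to Dnm1l, the inner membrane fusion GTPase against the fission GTPase, was -2.20 and -2.14 on the log2 scale in Nynrin CKO 1 and 2 and -3.42 and -3.67 in Nynrin CKO 3 and 4, against -2.69 to -2.40 in controls. The 2 Nynrin CKO pairs thus lay on opposite sides of all controls in this ratio, which does not depend on scaling between libraries.

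Mfn1, the mitofusin with the stronger tethering activity in vitro, was low in both groups. It spans 32529465 to 32579239 of chromosome 3, plus strand (ENSMUSG00000027668). It had 5.52, 9.33, 5.51 and 5.65 CPM in Nynrin CKO 1 to 4, against 10.4, 6.07, 4.46 and 9.30 CPM in controls 1 to 4, from 190 to 487 counts a library. The spread within each group exceeded the difference (log2 fold change -0.22 ± 0.30 SE, edgeR adjusted p = 0.787). It was 0.09 among receptor-rich libraries and -0.74 among receptor-poor ones. Mfn1 over Mfn2 was -3.03 ± 0.35 on the log2 scale in Nynrin CKO and -3.27 ± 0.62 in controls, with overlapping groups.

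**Figure D3:**
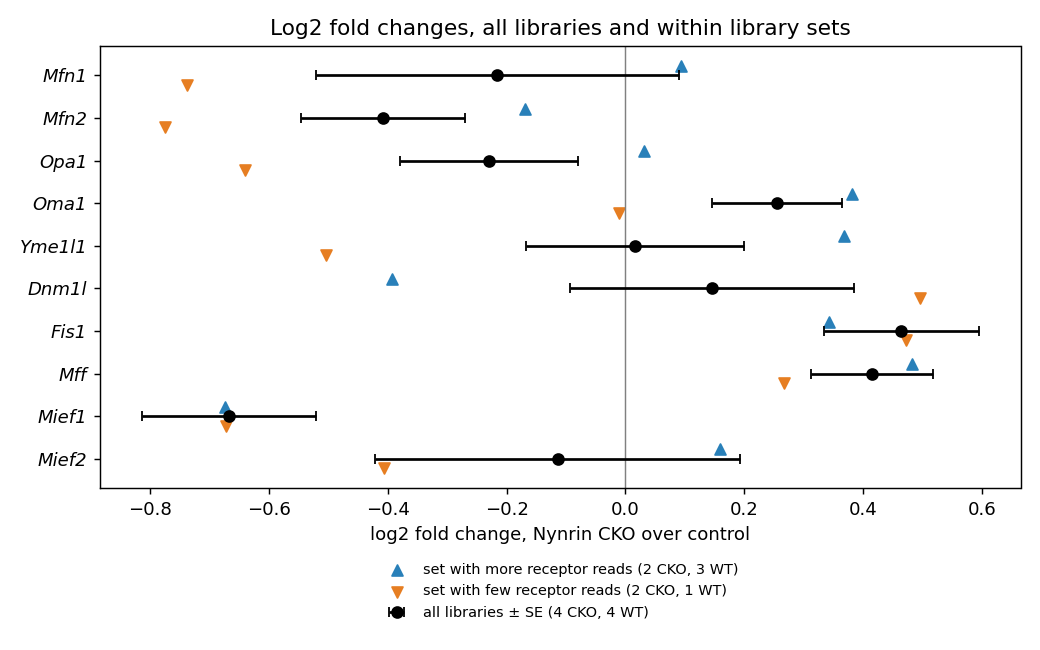
Log2 fold change of Nynrin CKO over control (x axis) for each gene (y axis), from all 8 libraries with its standard error (black), among receptor-rich libraries (blue, 2 Nynrin CKO and 3 controls) and among receptor-poor ones (orange, 2 Nynrin CKO and 1 control). For Mief1 all 3 values were -0.67, and for Dnm1l and Yme1l1 the sets had opposite signs.

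The genes nearest in pattern to the 4 large GTPases, by root mean square difference of centred log2(CPM + 1) over the 8 libraries, were sought among 9272 other genes of at least 10 CPM (9273 for Mfn1, itself below that level). For Dnm1l they were Prpf8 (0.069) and Pan3 (0.085), for Opa1 Zfp560 (0.048) and Zfp235 (0.048), for Mfn2 Plcg2 (0.068) and Pwp2 (0.069), and for Mfn1 Rbm38 (0.17) and Tnik (0.19). Prpf8, like Dnm1l, was lowest in Nynrin CKO 1 and 2 (484 and 468 CPM) and highest in Nynrin CKO 3 and 4 (962 and 980 CPM), against 562 to 675 CPM in controls. The likeness is a description over 8 libraries that share the library sets above.

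Around this core, 49 further genes of mitochondrial dynamics were tested in 5 lists, of which 1 rose and 2 fell. Their median log2 fold change was 0.19, and that of all tested genes was -0.09. When only genes with a mean of at least 10 CPM were tested, the medians were close. They were 0.05 for the 46 further genes at that level and 0.01 for all such genes. Among 21 regulators at the outer membrane, Gdap1 and Miga2 fell and none rose, with a median of 0.02 (-0.24 with total counts). At an unadjusted p under 0.05, 5 were higher and 4 lower in edgeR, DESeq2 called 0 higher and 3 lower, and limma-voom 2 and 3. Over all tested genes, 13.2% were higher and 5.78% lower at that unadjusted p, and the shares called by the other tools are those given for the core genes. Gdap1, a fission factor of the outer membrane best known from inherited neuropathy, was at 0.688 ± 0.248 CPM in Nynrin CKO and 3.81 ± 0.66 CPM in controls (SD, n = 4 each), from 22 to 43 and 124 to 196 counts a library. Its log2 fold change was -2.47 ± 0.35 SE (edgeR adjusted p = 0.0345), -2.68 among receptor-rich libraries and -2.26 among receptor-poor ones. Miga2, a mitoguardin that promotes fusion through lipid metabolism at the outer membrane, was at 12.7 ± 1.46 CPM in Nynrin CKO and 21.3 ± 1.5 CPM in controls. Its log2 fold change was -0.75 ± 0.13 SE (edgeR adjusted p = 0.0394), -0.72 and -0.78 among receptor-rich and receptor-poor libraries. Marchf5, a ubiquitin ligase of the outer membrane, did not pass (0.36, edgeR adjusted p = 0.101), and was at 0.11 with the length and GC trend removed. That removal left Gdap1 at -2.41 and Miga2 at -0.65, neither passing (edgeR adjusted p = 0.0895 and 0.135). With any 1 library other than control 4 left out, neither Gdap1 nor Miga2 passed (edgeR adjusted p up to 0.132 and 0.133), and without control 4 both did (0.0248 and 0.0367).

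Among 9 genes of the MICOS complex, which holds cristae junctions, and its partners, Micos10 rose and none fell. All 9 log2 fold changes were positive with TMM or RLE factors, 6 with total counts and 8 with upper-quartile factors. Over all tested genes, 12281 of 27573 were positive with TMM factors. That share is from genes of mostly lower level: 9862 tested genes had a mean of at least 10 CPM, as did all 9 here. The share of positive values among genes at that level was not counted. In the edgeR fit of only such genes, Micos10 was at 0.38 and the median of all genes was 0.01. The median of the 9 genes was 0.36 with TMM factors and 0.09 with total counts. At an unadjusted edgeR p under 0.05, 6 of the 9 were higher and 0 lower, DESeq2 called 1 higher and limma-voom 5. Micos10 was at 65.1 ± 2.88 CPM in Nynrin CKO and 44.5 ± 5.07 CPM in controls (log2 fold change 0.55 ± 0.11 SE, edgeR adjusted p = 0.0408), 0.61 and 0.37 among receptor-rich and receptor-poor libraries. It passed without control 4 (edgeR adjusted p = 0.0248) and not without any other library (0.0611 to 0.258). Micos13 (0.42, edgeR adjusted p = 0.0631), Samm50 of the outer membrane sorting complex (0.44, 0.0667) and Apoo (0.47, 0.0824) did not pass, though limma-voom called Micos13 and Samm50 (adjusted p = 0.0439 and 0.0168). With the length and GC trend removed, Micos10 was at 0.40 (edgeR adjusted p = 0.196), Micos13 at 0.06, Apoo at 0.15 and Samm50 at 0.53, with none passing. With total counts the median over all 49 genes was -0.07.

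Among 7 inner membrane proteases and scaffolds none passed in edgeR, and the median was 0.31 (0.04 with total counts). At an unadjusted p under 0.05, 4 were higher, and DESeq2 called 1 and limma-voom 2 higher. The prohibitins Phb (0.57, edgeR adjusted p = 0.0739) and Phb2 (0.47, 0.120), which form a ring scaffold that stabilises OPA1, the rhomboid protease Parl (0.39, 0.104) and Stoml2 (0.31, 0.148) had the smallest p. With the length and GC trend removed they were at 0.35, 0.31, 0.18 and 0.09. Of 7 mitophagy genes none passed (median 0.39, or 0.12 with total counts, 4 higher at an unadjusted edgeR p under 0.05, 0 called by DESeq2 and 1 by limma-voom). These were the receptors Bnip3 (0.39, edgeR adjusted p = 0.0916), Fundc1 (0.52, 0.108) and Bnip3l (0.44, 0.209) and the kinase Pink1 (0.52, 0.122), which were at 0.12, 0.33, 0.38 and 0.43 with the length and GC trend removed. Of 5 genes of mitochondrial transport along microtubules none passed (median -0.04, 1 higher at an unadjusted edgeR p under 0.05, 0 called by DESeq2 and 1 by limma-voom). The kinesin Kif5b was at 0.42 (edgeR adjusted p = 0.0984), and the adaptors Trak1 and Trak2 and the GTPase Rhot2 were at 0.34, -0.22 and -0.11. With the length and GC trend removed these were at 0.55, 0.50, -0.04 and -0.11. Rhot2 overlaps Wdr90, which had 51.9% as many counts.

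**Figure D4:**
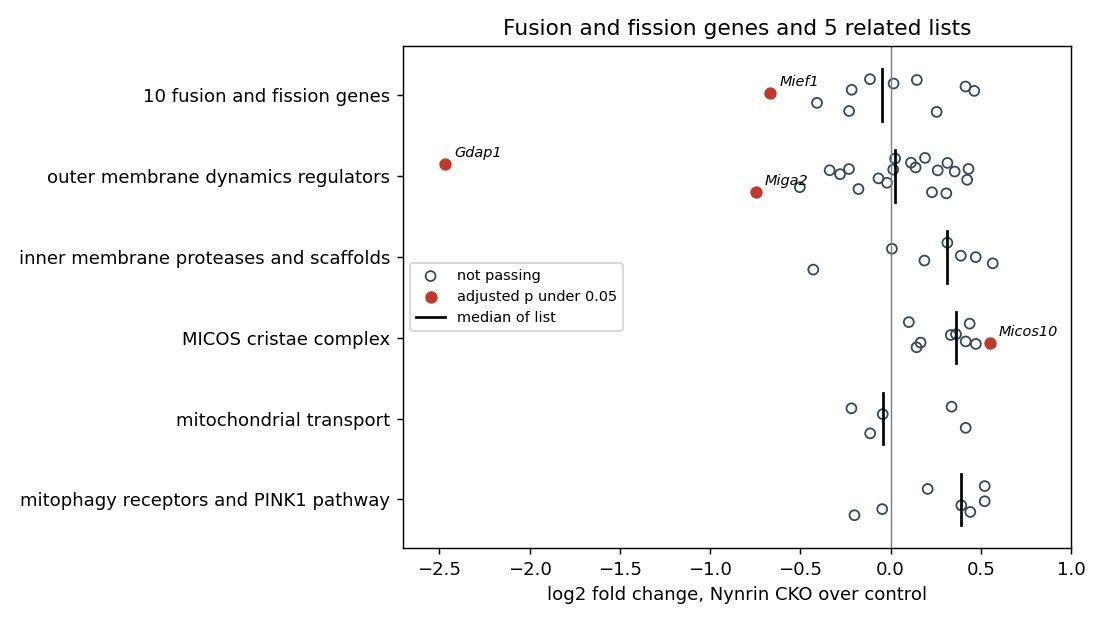
Log2 fold change of Nynrin CKO over control (x axis) for the 10 fusion and fission genes and 5 related lists (y axis), with 1 point per gene, filled where the edgeR adjusted p was under 0.05, and a line at each list's median. The medians were -0.05 for the 10 genes, 0.02 for the outer membrane regulators, 0.31 for the inner membrane list, 0.36 for MICOS, -0.04 for transport and 0.39 for mitophagy.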

How the data were processed

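The authors deposited raw counts of reads, whole numbers for each gene and library, per the file headers, on mm10 per the submitters' processing notes. Per the labels' protocols, total RNA was extracted from sorted cells with Trizol. Not given in the sources used here are the aligner, counting program, strand setting and sort markers. Overlapping records on either strand may therefore share reads. Apart from AC140267 in Mief1 (4.14%), no record overlapping a member had over 2% of its counts.

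The test was edgeR's robust quasi-likelihood F-test (edgeR 4.0.16, R 4.3.3) after filterByExpr and TMM scaling, with Benjamini-Hochberg adjustment over 27573 genes. CPM use the TMM factors. Members were also compared by exact permutation of log2(CPM + 1) over 70 assignments. Any gene whose groups do not overlap gets the lowest p of that test, 0.0286. For Mief1, Fis1 and Mff that p therefore restates that the groups did not overlap with TMM factors. Alternatives included DESeq2 1.42.0 and limma-voom (limma 3.58.1) with quality weights. Receptor-poor libraries had under 300 CPM of receptor reads, and high Xist meant over 100 CPM. Fold changes within these kinds of library came from 1 mean per group and kind; the lone receptor-poor control was given the spread of the rest. Trends with length and GC used the longest GENCODE M21 transcript and splines of 5 degrees of freedom. The code was tested on simulated counts.

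Members, lists and alternatives were chosen with earlier results of these data known. Overlap of the groups under other scalings was examined after the TMM values were seen. All members were named, as were the 4 genes with the smallest p in each further list and the 2 nearest patterns for each of the 4 large GTPases. For the outer membrane list, 1 of these is not reported here.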

Additional observations from a re-analysis of the deposited data

Results flagged for a closer look

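Mfn1 is given here because 1 library lay far from the other 3 of its group. Nynrin CKO 2 was at 9.33 CPM, and Nynrin CKO 1, 3 and 4 were at 5.51 to 5.65 CPM. The 4 controls ran from 4.46 to 10.4 CPM and took in that value. The test was made on 20 groups of 4 libraries (10 genes in 2 groups), and chance marks about 1 group in 20.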

How the results depend on the processing

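Over all genes, the 611 higher and 162 lower calls became 1566 and 892 with DESeq2, 1629 and 496 with limma-voom, 13 and 22 with RLE factors, 59 and 318 with total counts, 225 and 251 with upper-quartile factors, 33 and 16 with no filter, and 799 lower with a mean of at least 10 CPM. They were 1311 and 857 in receptor-rich libraries alone, 1221 and 408 with a term for receptor-poor libraries, 4 and 6 with a term for Xist class, 2 and 1 with the length and GC trend removed, and 0 and 0 with the Nynrin CKO pairs summed (1568 and 1454 at an unadjusted edgeR p under 0.05). With 1 library left out they were 1 to 1129 and 0 to 243, both highest without control 4. Among the 10 members, 1 higher and 2 lower were called with DESeq2, 1 higher with limma-voom, 2 lower with a mean of at least 10 CPM, and 0 lower with RLE factors, no filter, no robust estimation, receptor-rich libraries alone, the Xist term, the pairs summed or the trend removed. With 1 library left out, 0 to 1 were higher and 0 lower. Of the 49 further genes, 2 were higher with DESeq2, 11 with limma-voom, 6 in receptor-rich libraries alone, 5 with the receptor term and 0 with total counts, RLE factors, no filter, the Xist term, the pairs summed or the trend removed. There was 1 lower with RLE factors or no filter and 0 with the Xist term, the pairs summed or the trend removed. With 1 library left out, 0 to 8 were higher and 0 to 2 lower.

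Mief1 stayed negative in all 22 alternatives (-0.93 to -0.55) and passed in 6. Fis1 and Mff stayed positive in all 22 and passed in 0 and 3. Signs reversed, with no member passing, for Mfn1 (0.084) and Opa1 (0.023) in receptor-rich libraries alone, Oma1 with total counts (-0.0030), and Mief2 in receptor-rich libraries alone (0.15) and with 1 library left out (-0.34 to 0.12). Dnm1l was -0.18 with total counts, -0.042 with a mean of at least 10 CPM, -0.14 with limma-voom, -0.086 with the receptor term, -0.40 in receptor-rich libraries alone and -0.035 to 0.32 with 1 library left out. Yme1l1 was -0.042 with RLE factors, -0.086 with upper-quartile factors, -0.21 with total counts, -0.14 with a mean of at least 10 CPM, -0.031 with DESeq2, -0.054 with the pairs summed and -0.11 to 0.15 with 1 library left out. The cause was not tested. The replicate numbers are not said to pair the libraries: same-numbered libraries had correlated deviations of 0.03 to 0.15, and 5 of 8 libraries correlated best with their own number. With the replicate block edgeR called 0 genes higher and 0 lower over all genes (3456 and 1688 at an unadjusted p under 0.05), 0 members and 0 of the 49 genes, and Yme1l1 was -0.020. Depth limits Mfn1 and Mief2 most, at 190 to 487 and 93 to 284 counts a library.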
